A study of Homo sapiens and Canis lupus familiaris with 27 samples.

Results

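The genes described here are 9 genes of the oxidative stress response that is run by the transcription factor NRF2: NFE2L2, HMOX1, NQO1, GCLC, GCLM, TXNRD1, SRXN1, ME1 and OSGIN1. They were taken by name from the gene count tables of 3 prostate carcinoma cell lines, without a filter on their values. The list itself was chosen with earlier results of these data known. Shares of its genes set beside those of all genes are therefore a description. All 9 were among the 23708 genes listed for each of the human cell lines, PC-3 and LNCaP. Of the 16028 genes listed for the canine cell line CT1258, 7 carried these names, and HMOX1 and ME1 are not analysed here in this line. PC-3 was derived from a bone marrow metastasis and LNCaP from a lymph node metastasis. Each line was grown in its own medium with the same serum, and each stands for a single tumour. The cells were exposed to 15 µM PDA-66, a small molecule dissolved in DMSO, for 12 h or for 24 h, and the control cells of every line received 0.15% DMSO. The labels give 24 h for all DMSO samples, so the 12 h samples were compared with 24 h controls, and both PDA-66 groups of a line share these controls. A group held 3 biological replicates, except the PC-3 DMSO group, of which replicates 2 and 3 were analysed here, which makes 26 samples.

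NRF2, the product of NFE2L2, is kept low in unstressed cells because KEAP1 binds it and passes it to a ubiquitin ligase. Electrophiles and oxidants modify KEAP1, NRF2 then accumulates, pairs with a small MAF protein and binds antioxidant response elements near its target genes, while BACH1 competes for the same elements. The targets make glutathione, reduce thioredoxin and peroxiredoxins, detoxify quinones, break down haem and supply NADPH, and in several carcinomas this programme is active without any added stress.

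The response element has a core that can be written TGACNNNGC, where N is any base. It was searched on both strands in the 1000 bases before the start of each gene's canonical transcript in the human genome (GRCh37, the HG19 build of the human files). It was found in 6 of the 9 genes, against 32.5% of all 19881 protein-coding genes searched the same way. The stretches are shown because they match the core of the element that NRF2 binds. Each is given 5′ to 3′ on the strand of its gene with 10 bases on either side, and the capitals mark the core. In GCLC and GCLM the core lies on the other strand and therefore reads in reverse complement.
NQO1: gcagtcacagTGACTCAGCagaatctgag
ME1: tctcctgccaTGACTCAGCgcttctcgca
TXNRD1: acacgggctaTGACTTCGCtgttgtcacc
OSGIN1: agacaatctgTGACTTGGCcccagttttc
GCLM: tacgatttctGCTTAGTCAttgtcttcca
GCLC: acaggtcattGCTCTGTCAacacatattt

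The stretch of NQO1 lies at chr16:69760900-69760928 on the minus strand, with the core starting 455 bases before the gene's transcript. That of ME1 is at chr6:84140889-84140917 on the minus strand, 137 bases before the start. The cores of NQO1 and ME1 are the same and contain TGACTCA, the motif that AP-1 factors also bind. The stretch of TXNRD1 is at chr12:104609448-104609476 on the plus strand, 99 bases before the start, and that of OSGIN1 at chr16:83986278-83986306 on the plus strand, 557 bases before it. The stretch of GCLM is at chr1:94375002-94375030 on the minus strand, with the core 34 bases before the start, and that of GCLC at chr6:53410751-53410779 on the minus strand, 870 bases before it. The letters did not occur in the windows of NFE2L2, HMOX1 and SRXN1. These are matches of letters, and whether NRF2 was bound there was not measured.

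The depth of the PC-3 libraries ran from 14650839 to 18091755 counts, that of the LNCaP libraries from 11923105 to 14741883 and that of the CT1258 libraries from 7203534 to 20976950. Libraries with more counts have less counting error, and the CT1258 controls had on average 2.64 times the total of the CT1258 PDA-66 samples, so depth and treatment cannot be told apart in this line. The smallest count of a listed member was 57, for OSGIN1 in CT1258. Of the LNCaP samples, PDA-66 12 h replicate 2 stood apart. Its leading log2 distances to replicates 1 and 3, over the 500 genes that differed most in each pair, were 2.24 and 2.15, whereas replicates 1 and 3 lay 0.919 apart. Members of LNCaP whose values rest on it are therefore also given without it. In CT1258, 1 of 4 epithelial markers was listed, EPCAM, which had no count in the controls and reached at most 0.262 CPM after PDA-66. The 2 listed of 3 fibroblast markers, LUM foremost, summed to between 262 and 322 CPM in the CT1258 controls, between 333 and 429 CPM after 12 h and between 361 and 393 CPM after 24 h. In PC-3 the 4 epithelial markers summed to between 517 and 576 CPM in the controls and to between 331 and 455 CPM after PDA-66. Most of this difference was that of KRT18, at 339 and 361 CPM in the controls and between 159 and 252 CPM after PDA-66, while KRT8 averaged 178 CPM in the controls and 178 and 159 CPM after 12 h and 24 h. The 3 leukocyte markers of PC-3 summed to between 103 and 134 CPM in the controls and between 66.2 and 80.0 CPM after PDA-66, the 3 endothelial ones to between 13.0 and 18.8 CPM and between 4.26 and 10.1 CPM, and the 3 fibroblast ones to between 5.33 and 6.30 CPM and between 1.07 and 2.84 CPM. Each of these sums was mostly that of a single gene. CD68 averaged 119 CPM in the controls and 73.3 and 71.6 CPM after 12 h and 24 h. PECAM1 averaged 15.6 CPM, then 4.75 and 8.71 CPM, and COL3A1 5.58 CPM, then 0.988 and 2.18 CPM. The leukocyte marker PTPRC went the other way, from 0.201 CPM to 0.477 and 0.796 CPM. So did the endothelial marker CDH5, from 0 CPM to 0.158 and 0.144 CPM. In LNCaP the 3 endothelial markers summed to between 22.9 and 40.2 CPM in the controls and between 4.85 and 14.6 CPM after PDA-66, and TMPRSS2 averaged 453 CPM in the controls, 158 CPM after 12 h and 232 CPM after 24 h. Nearly all of this endothelial sum was VWF, which averaged 30.2 CPM in the controls and 8.29 and 6.84 CPM after 12 h and 24 h. These markers moved with the treatment, and their part in the results below was not tested.

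Values are CPM, counts scaled to the size of the library after TMM normalization. A change means an adjusted p below 0.001 in the edgeR quasi-likelihood test, adjusted by the Benjamini-Hochberg method over all genes tested in a line, and log2 fold changes are given ± SE. In bulk RNA, fewer cells expressing a gene and less RNA per cell cannot be told apart. Statements that groups did or did not overlap describe the samples and are not a test. Groups this small can separate by sampling alone, and the share of all genes that separated is not given here.

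In PC-3, NQO1, GCLM, TXNRD1 and SRXN1 rose at both time points. These are 4 of the 9 genes at 12 h, when 27.6% of all 13777 tested genes passed the threshold in either direction and 13% did so upwards, and 4 of 9 at 24 h, when 19.3% passed and 8.88% did so upwards. The median log2 fold change of the 9 genes was 0.53 at 12 h and 0.44 at 24 h, and that of all tested genes was -0.01 at both. The largest increase was that of TXNRD1, which encodes the cytosolic thioredoxin reductase. In CT1258, NQO1, GCLC, TXNRD1, SRXN1 and OSGIN1 fell at 12 h, 5 of 7 genes against 44.3% of 9886 tested genes in either direction and 22.1% downwards. At 24 h NQO1, GCLC and OSGIN1 fell and GCLM rose, 4 of 7 genes against 33.8% in either direction, 17.2% downwards and 16.6% upwards. The median log2 fold change of the 7 genes in CT1258 was -0.62 at 12 h and -0.30 at 24 h, and that of all tested genes was 0.00 and -0.01. In LNCaP none of the 9 genes passed the threshold in the edgeR test, and nearly no gene did, 0.0076% of 13156 at 12 h and 0% at 24 h.

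**Figure D1:**
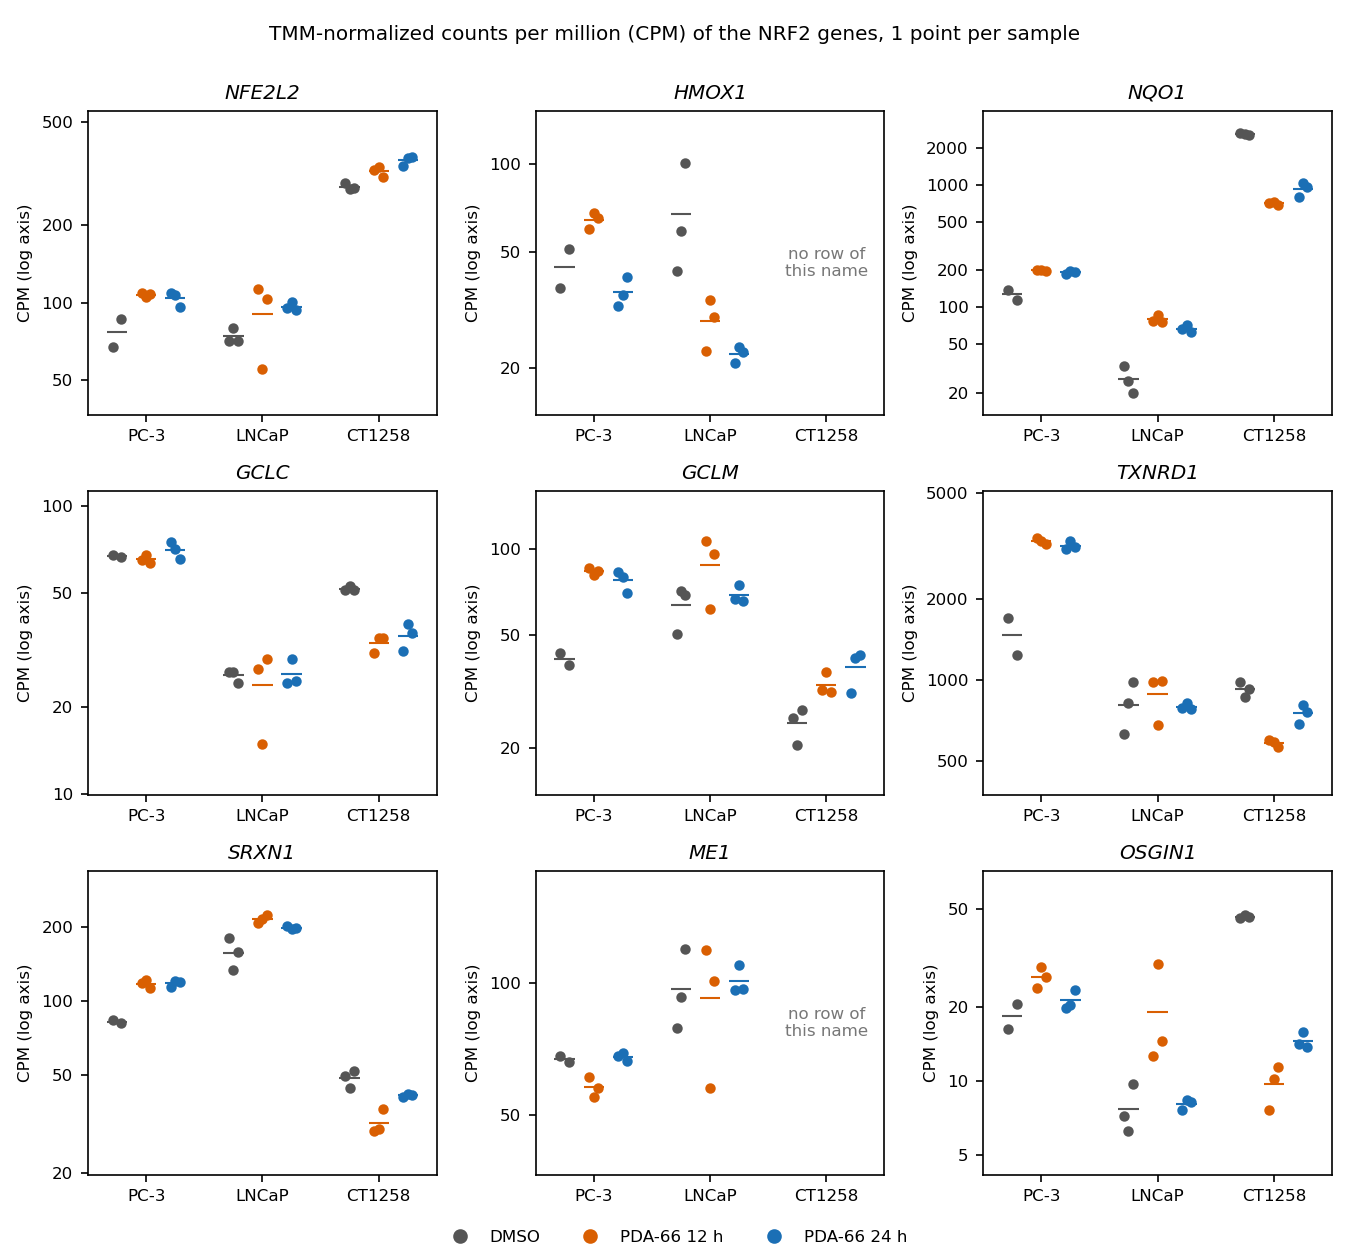
TMM-normalized CPM (log axis) of the 9 genes in the 26 samples, grouped by cell line, with 1 point per sample, a bar at the group mean and colours for the controls (DMSO) and for the samples after 12 h and 24 h with PDA-66. TXNRD1 and GCLM in PC-3 are higher in every PDA-66 sample than in both controls, NQO1 and OSGIN1 in CT1258 are lower in every PDA-66 sample than in the 3 controls, and LNCaP PDA-66 12 h replicate 2 lies apart from the other replicates in NFE2L2, GCLC, ME1 and OSGIN1.

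NFE2L2, the gene of the regulator itself (chr2:178083395-178257484), was at 67.3 and 86.3 CPM in the PC-3 controls, at 109, 105 and 109 CPM after 12 h and at 109, 107 and 95.9 CPM after 24 h. Every PDA-66 sample of PC-3 was above both controls, with log2 fold changes of 0.49 ± 0.11 and 0.44 ± 0.11. The adjusted p-values of 0.00261 and 0.00646 in edgeR did not pass the threshold. At 12 h, 57% of all genes tested in PC-3 had an adjusted p under 0.05. In CT1258 NFE2L2 was at 290, 276 and 278 CPM in the controls. There it was at 327, 334 and 306 CPM after 12 h and at 339, 365 and 368 CPM after 24 h. The CT1258 groups did not overlap with the controls either, and the adjusted p-values were 0.0319 at 12 h and 0.00132 at 24 h. In LNCaP the controls were at 71.1, 80.1 and 71.4 CPM and the 24 h samples at 95.6, 100.4 and 93.4 CPM, while at 12 h replicate 2 was at 55.3 CPM, below the controls, and the others were at 113 and 103 CPM. No difference in the response of NFE2L2 between cell lines passed the test, a joint fit whose SE draws on the spread of all lines, LNCaP included. Those between PC-3 and CT1258 were 0.27 ± 0.25 at 12 h (95% interval -0.25 to 0.79) and 0.08 ± 0.25 at 24 h (-0.44 to 0.60).

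GCLM and GCLC encode the modifier and the catalytic subunit of glutamate-cysteine ligase, the enzyme that limits glutathione synthesis. GCLM (chr1:94350755-94375012) stood at 43.2 and 39.2 CPM in the PC-3 controls, at 86.3, 81.4 and 84.0 CPM after 12 h and at 83.5, 79.8 and 70.4 CPM after 24 h. All PDA-66 samples of PC-3 were well above both controls, and the log2 fold changes were 1.03 ± 0.11 and 0.92 ± 0.11 (adjusted p = 4.16e-06 and 1.77e-05, edgeR). In CT1258, GCLM was at 25.4, 20.5 and 27.2 CPM in the controls, at 31.8, 36.9 and 31.4 CPM after 12 h and at 31.3, 41.4 and 42.5 CPM after 24 h. It was the member that rose in CT1258, by 0.65 ± 0.14 on the log2 scale at 24 h (adjusted p = 0.000981, edgeR), a call so near the threshold that 6 of 9 fits with 1 sample left out lost it. At 12 h the value was 0.45 ± 0.14 (adjusted p = 0.00962). In LNCaP, GCLM was at 50.2, 71.3 and 68.9 CPM in the controls and at 107, 61.7 and 96.4 CPM after 12 h, where replicate 2 lay within the range of the controls. The 24 h samples of LNCaP, at 66.8, 74.7 and 65.7 CPM, overlapped with the controls.

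The partner subunit GCLC (chr6:53362139-53481768) took another course. In PC-3 it stood at 67.7 and 66.4 CPM in the controls, at 64.8, 67.4 and 63.4 CPM after 12 h and at 74.9, 71.1 and 65.5 CPM after 24 h. The groups overlapped, and the 95% intervals of the log2 fold change, -0.25 to 0.17 at 12 h and -0.13 to 0.28 at 24 h, excluded the log2 fold changes of GCLM. In CT1258, GCLC fell from 51.1, 52.7 and 50.8 CPM to 30.9, 34.8 and 34.9 CPM after 12 h and to 31.4, 38.8 and 36.1 CPM after 24 h. Every PDA-66 sample was below every control, and the log2 fold changes were -0.62 ± 0.10 and -0.54 ± 0.10 (adjusted p = 8.93e-05 and 0.000365, edgeR), calls that 1 and 4 of 9 fits with 1 sample left out lost. The call at 24 h was also lost when only the compared groups were fitted. The subunits GCLC and GCLM had opposite signs in CT1258. In LNCaP, GCLC was at 26.5, 26.6 and 24.2 CPM in the controls, at 27.1, 14.9 and 29.5 CPM after 12 h and at 24.2, 29.3 and 24.7 CPM after 24 h, with replicate 2 at 12 h as the low sample. The log2 value at 12 h was -0.11 ± 0.24 with this sample and 0.14 ± 0.12 without it, and neither passed the test.

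TXNRD1 (chr12:104609557-104744085) was at 1701 and 1239 CPM in the PC-3 controls, at 3372, 3294 and 3227 CPM after 12 h and at 3073, 3295 and 3124 CPM after 24 h. The PDA-66 samples were above both controls and close to each other, and the log2 fold changes were 1.17 ± 0.13 and 1.11 ± 0.12 (adjusted p = 5.45e-06 and 1.46e-05, edgeR). In CT1258 TXNRD1 fell from 980, 862 and 927 CPM in the controls to 595, 589 and 560 CPM after 12 h, which is -0.67 ± 0.09 on the log2 scale (adjusted p = 1.23e-05, edgeR). After 24 h it was at 684, 809 and 761 CPM, still below each control but nearer to them, and the value of -0.30 ± 0.09 did not pass the threshold (adjusted p = 0.00855). In LNCaP the controls ranged from 629 to 980 CPM and the PDA-66 samples from 680 to 988 CPM, with overlapping groups at both times.

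SRXN1 encodes sulfiredoxin, which restores oxidized peroxiredoxins. In PC-3 it was at 83.5 and 81.1 CPM in the controls, at 118, 121 and 113 CPM after 12 h and at 113, 120 and 120 CPM after 24 h. All PDA-66 samples lay above the controls, with log2 fold changes of 0.51 ± 0.09 and 0.52 ± 0.09 (adjusted p = 0.000361 and 0.000460, edgeR), and these calls were lost in 4 and 5 of 8 fits with 1 sample left out. Both calls were also lost with limma voom and when only the compared groups were fitted, and the call at 24 h with the replicate block. In LNCaP the controls were at 180, 133 and 157 CPM, the 12 h samples at 206, 215 and 224 CPM and the 24 h samples at 201, 195 and 197 CPM. No PDA-66 sample of LNCaP overlapped with a control, and the adjusted p-values were 0.0808 and 0.241. In CT1258 SRXN1 fell from 49.4, 44.3 and 52.0 CPM to 29.6, 30.1 and 36.5 CPM after 12 h, by 0.60 ± 0.11 on the log2 scale (adjusted p = 0.000182, edgeR), and was at 40.8, 42.0 and 41.6 CPM after 24 h (adjusted p = 0.0706). The call at 12 h was lost in 2 of 9 fits with 1 sample left out and when only the compared groups were fitted. In the GENCODE annotation, 90.7% of the exon bases of SRXN1 (chr20:627259-633844) are shared with another protein-coding gene model on the same strand. The authors counted human reads over RefSeq genes. Whether reads were split between gene models there, and so whether the human SRXN1 counts are affected, is not known.

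NQO1 encodes the quinone reductase that is widely used as a readout of NRF2 activity. In PC-3 it rose from 139 and 115 CPM to 202, 203 and 197 CPM after 12 h and to 185, 199 and 195 CPM after 24 h. The groups did not overlap, and the log2 fold changes were 0.66 ± 0.10 and 0.60 ± 0.10 (adjusted p = 0.000122 and 0.000338, edgeR). Both calls were lost when only the compared groups were fitted, and the call at 24 h was also lost with the replicate block and in 3 of 8 fits with 1 sample left out. In LNCaP the controls were at 32.9, 25.1 and 19.8 CPM, the 12 h samples at 77.5, 86.9 and 75.3 CPM and the 24 h samples at 66.2, 71.6 and 62.5 CPM. Every PDA-66 sample of LNCaP was far above every control, replicate 2 at 12 h included. The log2 fold changes of 1.62 ± 0.20 and 1.36 ± 0.20 were larger than in PC-3 yet had adjusted p-values of 0.00537 and 0.0177 in edgeR, and without replicate 2 at 12 h they were 1.56 ± 0.17 and 1.36 ± 0.16 with adjusted p-values of 0.000477 and 0.000703. In CT1258 NQO1 fell from 2669, 2626 and 2573 CPM in the controls to 717, 722 and 686 CPM after 12 h and to 790, 1029.5 and 956 CPM after 24 h. That is 27.0% and 35.3% of the control mean, with log2 fold changes of -1.89 ± 0.10 and -1.50 ± 0.10 (adjusted p = 4.50e-09 and 4.16e-08, edgeR). Of the exon bases of NQO1 (chr16:69740899-69760571), 22.8% overlap in GENCODE with a long non-coding RNA on the other strand. Whether counting used the strand is not given in the sources used here.

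HMOX1 encodes haem oxygenase-1 and lies at chr22:35776354-35790207. In PC-3 it was at 37.6 and 51.0 CPM in the controls, at 60.0, 67.9 and 65.6 CPM after 12 h and at 32.8, 35.5 and 41.1 CPM after 24 h. The 12 h samples were above both controls (log2 fold change 0.54 ± 0.14, adjusted p = 0.00452 in edgeR), and the 24 h samples overlapped with them. Between 12 h and 24 h HMOX1 was the only member that passed the threshold in PC-3, 1 of 9 against 1.41% of all tested genes in either direction and 0.631% downwards, and it fell by 0.82 ± 0.12 on the log2 scale (adjusted p = 0.000967, edgeR). This call is at the edge, since 6 of 8 fits with 1 sample left out lost it. In LNCaP HMOX1 was at 43.0, 58.8 and 101 CPM in the controls, at 22.8, 34.3 and 29.9 CPM after 12 h and at 20.8, 23.5 and 22.8 CPM after 24 h. All PDA-66 samples of LNCaP lay below all controls, although the controls themselves spread widely, and the log2 fold changes were -1.22 ± 0.30 and -1.60 ± 0.30 with adjusted p-values of 0.0345 and 0.0318 in edgeR.

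ME1, the malic enzyme that yields NADPH in the cytosol (chr6:83920121-84140770), was at 68.3 and 66.3 CPM in the PC-3 controls, at 61.3, 55.0 and 57.6 CPM after 12 h and at 68.3, 69.3 and 66.6 CPM after 24 h. The 12 h samples were slightly below the controls (log2 -0.21 ± 0.09, adjusted p = 0.0649 in edgeR), and the 24 h samples overlapped with them. In LNCaP ME1 was between 79.0 and 120 CPM in the controls, between 57.8 and 119 CPM after 12 h and between 96.3 and 110 CPM after 24 h. The lowest of these was replicate 2 at 12 h.

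OSGIN1 encodes an oxidative stress induced growth inhibitor (chr16:83964916-83999937). In PC-3 it was at 16.2 and 20.5 CPM in the controls, at 23.9, 29.0 and 26.5 CPM after 12 h and at 19.8, 20.4 and 23.5 CPM after 24 h. The 12 h samples were above both controls without passing the threshold (log2 0.53 ± 0.14, adjusted p = 0.00562 in edgeR), and the 24 h samples overlapped with them. In LNCaP it was at 7.20, 6.25 and 9.73 CPM in the controls, at 12.7, 30.0 and 14.6 CPM after 12 h and at 7.65, 8.34 and 8.20 CPM after 24 h. Here replicate 2 at 12 h was the high sample, and the log2 fold change at 12 h was 1.30 ± 0.32 with it (adjusted p = 0.0374) and 0.82 ± 0.18 without it (adjusted p = 0.00915). In CT1258 OSGIN1 showed the largest decrease of the 7 genes, from 45.8, 47.4 and 46.4 CPM to 7.59, 10.2 and 11.4 CPM after 12 h and to 14.1, 15.7 and 13.7 CPM after 24 h. This left 20.9% and 31.2% of the control mean, with log2 fold changes of -2.26 ± 0.13 and -1.68 ± 0.12 (adjusted p = 9.23e-09 and 1.10e-07, edgeR).

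**Figure D2:**
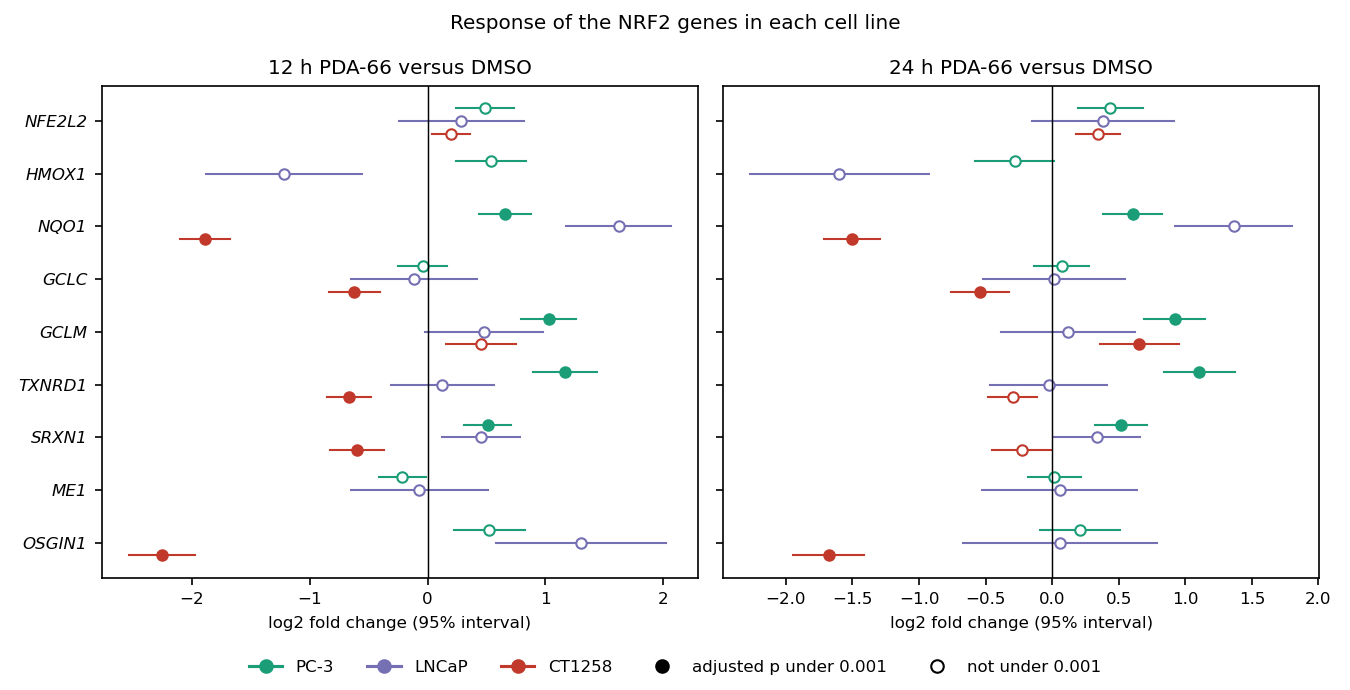
Log2 fold change of each gene against the DMSO controls (horizontal axis, with 95% intervals) after 12 h and 24 h in PC-3, LNCaP and CT1258, where filled points passed an adjusted p of 0.001 in edgeR. NQO1 lies right of 0 in PC-3 and LNCaP and left of 0 in CT1258 (-1.89 at 12 h), whereas the NFE2L2 points of the lines lie close together.

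In LNCaP the count of 0 called members in the edgeR test came with 4 of 9 genes at an unadjusted p under 0.05 at 12 h and 3 at 24 h, against 30% and 19.8% of all genes. An adjusted p under 0.05 was reached by 3 and 2 members, against 9.14% and 2.92%, while in PC-3 at 12 h 7 of 9 members reached it, against 57%. The DESeq2 Wald test called 1 and 2 members, against 4.73% and 2.19% of all genes, the edgeR likelihood ratio test 1 and 2, against 4.34% and 1.96%, and limma voom with sample quality weights 3 and 2, against 13.9% and 11.2%. The biological coefficient of variation was 0.240 in LNCaP, 0.0971 in PC-3 and 0.100 in CT1258. Without PDA-66 12 h replicate 2, NQO1 was called at both times, when 1.96% and 0.787% of all tested genes were. In the same fit NFE2L2 was at 0.55 ± 0.10 and GCLM at 0.69 ± 0.15 on the log2 scale at 12 h (adjusted p = 0.00365 and 0.00708, edgeR), and HMOX1 was at -1.36 ± 0.30 at 12 h and -1.59 ± 0.26 at 24 h (adjusted p = 0.00803 and 0.00281, edgeR), values that did not pass the threshold.

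Between 12 h and 24 h no member was called in CT1258 by edgeR, against 2.13% of all tested genes, with 4 of the 7 at an unadjusted p under 0.05 (32.5% of all genes) and the same 4 at an adjusted p under 0.05 (19.3%). These were NQO1, TXNRD1, SRXN1 and OSGIN1, all of which had fallen at 12 h and were higher at 24 h than at 12 h, by 0.38 ± 0.10, 0.37 ± 0.09, 0.37 ± 0.11 and 0.58 ± 0.15 on the log2 scale (adjusted p = 0.0138, 0.00971, 0.0311 and 0.0138, edgeR). DESeq2 called 1 of them, against 7.32% of all genes, and limma voom 4, against 21%. In LNCaP no member was called between the times, against 0% of all genes, 1 had an unadjusted p under 0.05 (OSGIN1, against 6.36% of all genes), DESeq2 called 0, against 0.00761%, and limma voom 2, against 1.44%.

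Whether the responses of the lines differed was tested as an interaction, with the same threshold. The joint fit uses 1 spread per gene for all lines, though the biological coefficient of variation was 0.240 in LNCaP. It was 0.0971 in PC-3 and 0.100 in CT1258. The SE for a pair of lines therefore also draws on the third line, and can be too wide between PC-3 and CT1258 and too narrow for LNCaP. The test covered 11736 genes, those that the tables share by name and that passed the count filter in the joint fit. In the separate fits, 8265 genes passed the filter in every line, so the shares of all genes below include genes scarce in some line. PC-3 and CT1258 differed in 4 of 7 members at 12 h, against 9.33% of all genes, and in 3 of 7 at 24 h, against 4.79%. The response of PC-3 was the higher one in each. At 12 h the differences on the log2 scale were 2.77 ± 0.34 for OSGIN1, 2.53 ± 0.20 for NQO1, 1.82 ± 0.23 for TXNRD1 and 1.09 ± 0.17 for SRXN1 (adjusted p = 1.70e-06, 3.22e-09, 3.13e-06 and 3.13e-05, edgeR). NQO1, TXNRD1 and SRXN1 rose in PC-3 and fell in CT1258 at 12 h, and at 24 h NQO1 did. For GCLM, which was higher with PDA-66 in both lines, the difference was 0.56 ± 0.27 at 12 h (95% interval 0.00 to 1.11) and 0.26 ± 0.27 at 24 h (-0.30 to 0.81), and it did not pass the test.

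LNCaP and CT1258 differed in 3 of 7 members at 12 h, against 12.8% of all genes, and in 2 of 7 at 24 h, against 3.44%. At 12 h these were OSGIN1, with a difference of 3.49 ± 0.32, NQO1 with 3.46 ± 0.19 and SRXN1 with 1.00 ± 0.16, and at 24 h NQO1 and OSGIN1. The OSGIN1 call at 24 h was lost in 4 of 8 alternatives and in 11 of 26 fits with 1 sample left out. The SRXN1 call at 12 h was lost with the replicate block. PC-3 and LNCaP differed in none of the 7 members by edgeR, against 3.57% of all genes at 12 h and 1.23% at 24 h, with 4 and 3 members at an unadjusted p under 0.05, against 33.7% and 23.5%, and 2 at an adjusted p under 0.05 at each time, against 19.6% and 9.7%. The largest of these differences were those of TXNRD1, 1.07 ± 0.23 and 1.16 ± 0.23 higher in PC-3 (adjusted p = 0.00202 and 0.00215, edgeR), and of NQO1, where the response of PC-3 was lower by 0.93 ± 0.20 at 12 h (adjusted p = 0.00188). The edgeR likelihood ratio test called 2 differences at 12 h, against 7.46% of all genes, and 1 at 24 h, against 3.47%. For HMOX1, present in the human lines only, a fit of these lines gave a difference of 1.82 ± 0.37 at 12 h (adjusted p = 0.00418). CT1258 differs from the other lines in species, read alignment and control depth as well, which cannot be told apart from the cell line.

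**Figure D3:**
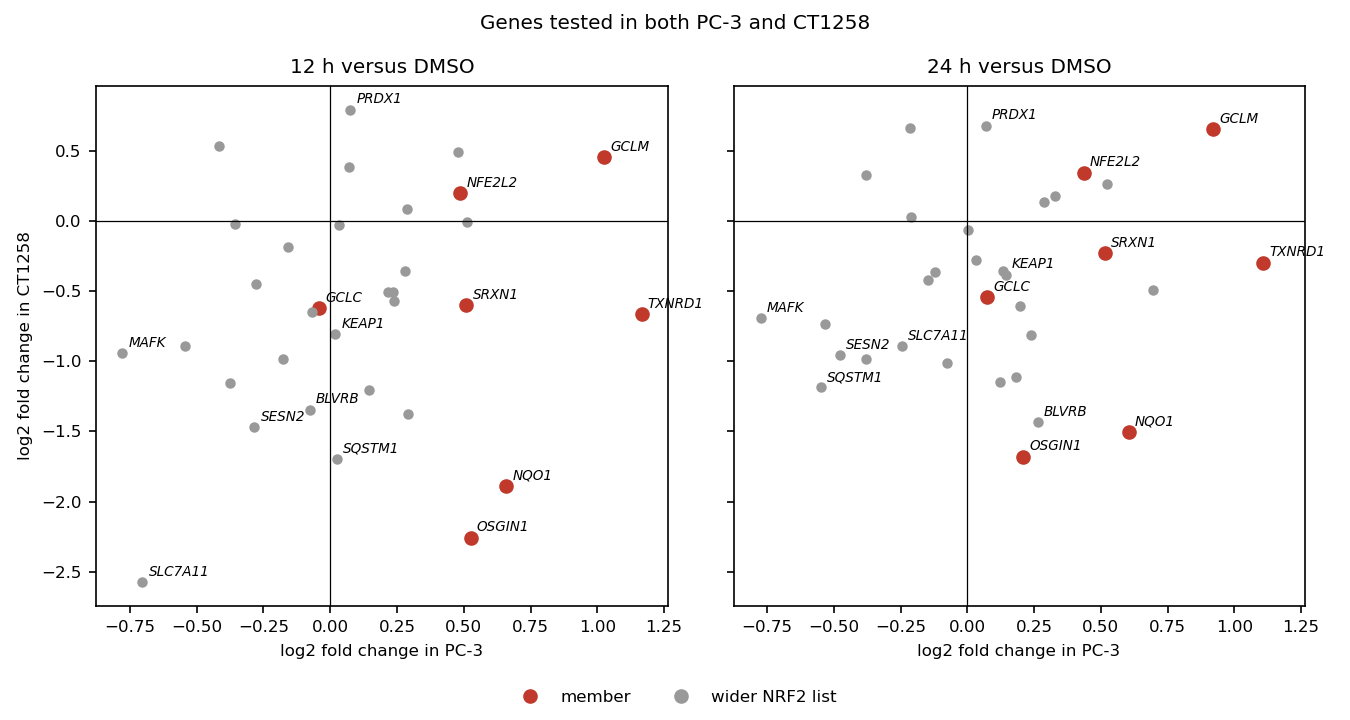
Log2 fold change in PC-3 (horizontal axis) against that in CT1258 (vertical axis) at 12 h and 24 h, with 1 point per gene tested in both lines, red for the members and grey for the wider list of NRF2 genes, of which 1 is not shown. NQO1, TXNRD1 and SRXN1 lie in the lower right quadrant at 12 h, and GCLM lies in the upper right one at both times.

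The DMSO controls of the human lines already differed. In the controls NQO1 averaged 129 ± 17.7 CPM in PC-3 (SD, n = 2) and 25.9 ± 6.51 CPM in LNCaP (SD, n = 3), a log2 difference of 2.32 ± 0.17 (adjusted p = 2.96e-09, edgeR). GCLC, at 1.41 ± 0.21, OSGIN1, at 1.27 ± 0.28, and TXNRD1, at 0.89 ± 0.19, were also higher in PC-3. SRXN1 was lower in PC-3, by -0.91 ± 0.14 on the log2 scale. These 5 of 9 genes compare with 40.8% of all 15018 genes tested. Without LNCaP DMSO replicate 1 or LNCaP DMSO replicate 2, 3 genes were called, and the calls of OSGIN1 and TXNRD1 were the ones lost. The TXNRD1 call was also lost with library size only and when only the DMSO groups were fitted. With the fits that leave 1 PC-3 control included, the difference ran from 1.10 to 1.47 for OSGIN1 and from 0.64 to 1.10 for TXNRD1. NFE2L2 itself was at 78.1 ± 13.6 CPM in PC-3 and 74.0 ± 4.81 CPM in LNCaP, a log2 difference of 0.08 (95% interval -0.39 to 0.54). After PDA-66, NQO1 in LNCaP, at 62.5 to 86.9 CPM, was still below the 115 and 139 CPM of the PC-3 controls, set side by side here from separate normalizations.

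To compare levels between genes, CPM was divided by the length of the canonical transcript in kilobases. In the PC-3 controls TXNRD1 led with 381 ± 84.6 CPM per kilobase (SD, n = 2), followed by NQO1 with 50.4 ± 6.85, SRXN1 with 32.6 ± 0.687, NFE2L2 with 31.4 ± 5.49, HMOX1 with 28.5 ± 6.11, ME1 with 20.1 ± 0.427, GCLC with 17.7 ± 0.251, OSGIN1 with 9.55 ± 1.59 and GCLM with 8.43 ± 0.568. SRXN1, NFE2L2 and HMOX1 overlapped with their neighbours, as did OSGIN1 and GCLM, and the other steps were larger than the spread of the samples. In the LNCaP controls TXNRD1 led as well, with 210 ± 45.6 CPM per kilobase (SD, n = 3), and SRXN1, HMOX1, NFE2L2 and ME1 formed an overlapping run, with means between 29.1 and 62.1. NQO1 stood seventh there, with 10.3 ± 2.60, and its samples overlapped with those of GCLM at 13.0 ± 2.37. OSGIN1 was the lowest in LNCaP with 4.02 ± 0.934.

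**Figure D4:**
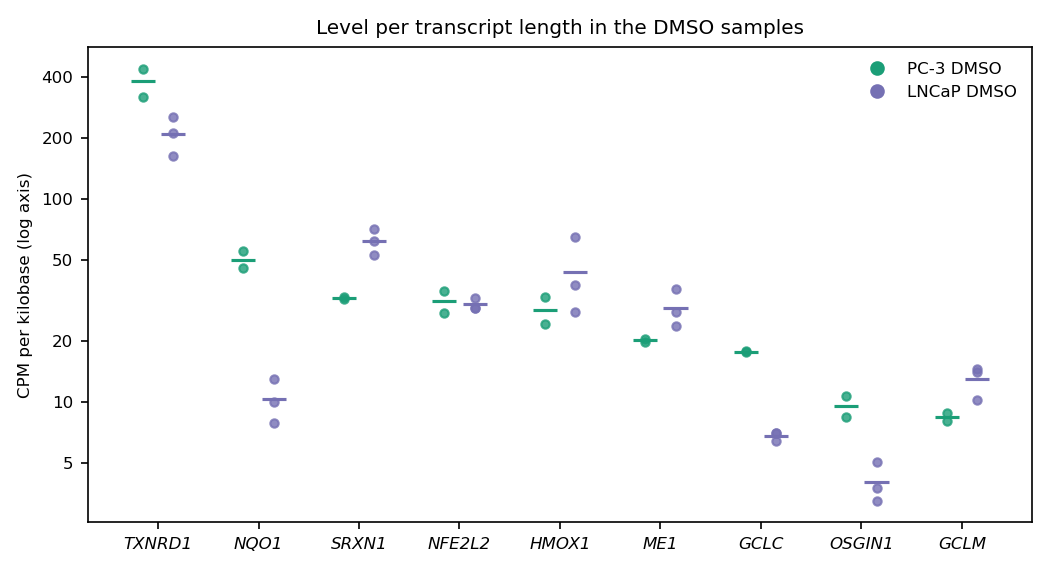
CPM per kilobase of transcript (log axis) in the DMSO samples of PC-3 and LNCaP, with 1 point per sample and a bar at the mean, in the order of the PC-3 means. TXNRD1 leads in both lines, and NQO1 is second in PC-3 with 50.4 and seventh in LNCaP with 10.3.

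The wider NRF2 list held 47 further genes of the pathway: its regulators, glutathione and thioredoxin enzymes, xenobiotic handling, NADPH supply and haem and iron genes. In PC-3 1 of 46 tested genes rose and 5 fell at 12 h, and 3 rose and 5 fell at 24 h. Of all genes, 13% rose and 14.6% fell at 12 h and 8.88% rose and 10.5% fell at 24 h, and the list had a median log2 fold change of -0.13 at both times. The export pump gene ABCC3 fell from 97.1 and 71.3 CPM to between 20.6 and 21.7 CPM after 12 h (log2 -1.98 ± 0.15) and between 17.7 and 25.4 CPM after 24 h. GPX4, the glutathione peroxidase that reduces lipid peroxides, fell by 0.80 ± 0.10 and 0.74 ± 0.10, and MAFK, a small MAF partner of NRF2, by 0.78 ± 0.13 and 0.77 ± 0.13, calls that 4 of 8 fits with 1 sample left out lost at each time. In PC-3, then, 4 of 9 members rose at each time, and the share of the wider list that fell was not clearly above that of all genes.

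In CT1258 3 of 27 tested genes of the wider list rose and 14 fell at 12 h, and 2 rose and 11 fell at 24 h, with medians of -0.57 and -0.49. Of all genes, 22.2% rose and 22.1% fell at 12 h, and 16.6% rose and 17.2% fell at 24 h. The genes called lower at both times numbered 11. Among them the autophagy receptor gene SQSTM1, whose product binds KEAP1, fell from 967, 1077 and 977 CPM to between 299 and 333 CPM after 12 h (log2 -1.70 ± 0.09). BLVRB, which acts after haem oxygenase, fell by 1.34 ± 0.11 at 12 h, and the stress gene SESN2 by 1.47 ± 0.13. PRDX1, a peroxiredoxin, rose by 0.79 ± 0.09 and 0.68 ± 0.09.

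KEAP1, the inhibitor of NRF2, fell in CT1258 at 12 h by 0.80 ± 0.10 on the log2 scale (adjusted p = 6.37e-06, edgeR) and was at -0.38 ± 0.10 at 24 h (adjusted p = 0.00350). In PC-3 it was at 0.02 ± 0.10 and 0.14 ± 0.10, neither past the threshold. BACH1, the repressor at the same elements, was not called in any line at either time, with log2 values between -0.59 in LNCaP at 12 h and 0.03 in CT1258 at 24 h. In LNCaP 0 of 38 tested genes of the wider list were called in edgeR at either time, with 19 and 11 at an unadjusted p under 0.05, against 30% and 19.8% of all genes. DESeq2 called 4 and 2 of them, against 4.73% and 2.19%, and limma voom 12 and 10, against 13.9% and 11.2%.

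Over all 26 samples, with each gene's log2 CPM centred on its cell line, the gene most like each member among 8265 genes was PTGR1 for NQO1 (Pearson r = 0.93), KCTD9 for NFE2L2 (0.95), LMF2 for OSGIN1 (0.94), CHUK for GCLM (0.91), TCP11L1 for TXNRD1 (0.89), NT5DC2 for SRXN1 (0.89) and RNF11 for GCLC (0.88). The samples share cell line and treatment groups, so these values are a description. Among the members, NQO1 and SRXN1 were each other's nearest, at r = 0.83, and GCLC was the least tied to the others, its highest value being 0.41 with NQO1.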

How the data were processed

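RNA of the 26 samples was sequenced by the authors as poly(A)-selected single reads. The authors aligned human reads to HG19 with STAR 2.3.1s and canine reads to CanFam3.1 with BWA, per the submitters' processing notes and the methods, and deposited the number of reads per gene as raw counts, without normalization. Of 27 labelled samples, 1 PC-3 control that the authors excluded is not analysed here. Strand use and the treatment of reads that fit several genes are not given in the sources used here. For 2 PC-3 PDA-66 12 h samples, P12-1 and P12-2, the replicate number is unclear. Trailing separators behind 1 PC-3 column were removed.

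Counts were analysed with R 4.3.3 and edgeR 4.0.16 (filterByExpr, TMM, glmQLFit, glmQLFTest), 1 fit per line over its 3 groups, with Benjamini-Hochberg adjustment over all tested genes. Interactions used 1 fit over all lines, and the DMSO controls of the human lines 1 fit of both lines. SE is the log2 fold change divided by the square root of F. The scripts were tested on simulated data. Total counts of 7203534 to 20976950 per sample set the counting error. No pair of replicates had counts within sampling noise, the lowest chi-square per gene being 1.55. The alternatives were DESeq2 1.42.0 size factors and Wald test, limma 3.58.1 voom, the likelihood ratio test, library size only, other filters (none, or at least 1 CPM in at least 3 samples), only the groups or lines compared, a replicate block, a threshold of 0.05, a minimum of 1 for the size of the log2 fold change, thinned CT1258 controls and each sample left out. Leaving out a PC-3 control was added after seeing the data, and the remaining control is then assumed to vary like the other groups.

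All 9 members were named. From the wider list the text names KEAP1, BACH1 and up to 4 genes per direction called alike at both times in PC-3 or CT1258, those with the largest mean change, of which 1 is not reported here. For each member tested in every line the gene with the highest correlation was named (log2 CPM, prior count 2). The members and lists were chosen with earlier results of these data known, and the lists were written from general knowledge. Gene positions, transcript lengths and the element search used the GRCh37 genome and the GENCODE annotation lifted to it. The canine genome was not used here. Figures were drawn with Python 3.11.15 and matplotlib 3.10.9.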

Additional observations from a re-analysis of the deposited data

Results flagged for a closer look

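The responses of 4 members differed between CT1258 and a human line by a test of the difference itself (edgeR interaction, adjusted p below 0.001), each with the human response higher. For NQO1 the differences on the log2 scale were 2.53 at 12 h and 2.10 at 24 h against PC-3, and 3.46 and 2.84 against LNCaP. For OSGIN1 they were 2.77 and 1.88 against PC-3 and 3.49 and 1.71 against LNCaP. The last was lost in 4 of 8 alternatives and in 11 of 26 fits with 1 sample left out. The call for the 1.88 was lost without PC-3 PDA-66 24 h replicate 3 and without CT1258 PDA-66 24 h replicate 1 or 3. TXNRD1 differed by 1.82 and 1.40 between PC-3 and CT1258. Calls in fits that leave 1 PC-3 control are not listed here. With those fits and the alternatives included, the 1.88 of OSGIN1 ran from 1.69 to 2.13 and the 1.40 of TXNRD1 from 1.25 to 1.62. SRXN1 differed at 12 h, by 1.09 against PC-3 and by 1.00 against LNCaP. The call against LNCaP was lost with the replicate block. Species, alignment and control depth differ with the line and cannot be told apart from it. The gap test for a single outlying sample needs at least 4 samples a group and was not applied. LNCaP PDA-66 12 h replicate 2 stood apart by its distance to replicates 1 and 3, 2.24 and 2.15 against 0.919 between those.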

How the results depend on the processing

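PC-3. Fitting only the compared groups gave 2 called members at 12 h and 2 at 24 h, and 4 genes of the wider list at 24 h. A log2 fold change of at least 1 left 2 and 1 members and 2 and 2 wider genes. An adjusted p under 0.05 gave 7 members at 12 h and 21 and 19 wider genes. At that threshold 57% of all genes passed at 12 h. At 24 h 3341 of 13777 tested genes were higher and 3532 lower. Without a filter 10 wider genes were called at 12 h, with DESeq2 12 and with the likelihood ratio test 12. Between the times, library size only, the 1 CPM filter and a log2 fold change of at least 1 each gave 0 members and voom 3. Where the share of all genes under the same rule is not given, the counts of this section show only how the calls depend on the rule.

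LNCaP. Against 0 members, DESeq2 called 1 and 2, the likelihood ratio test 1 and 2, voom 3 and 2, and a threshold of 0.05 gave 3 and 2. Between the times voom called 2. Of the wider list, DESeq2 called 4 and 2, the likelihood ratio test 2 and 1, voom 12 and 10, and the threshold of 0.05 gave 5 and 1.

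CT1258. Fitting only the compared groups gave 2 members at 24 h and 1 between the times, where DESeq2 gave 1, voom 4 and a threshold of 0.05 gave 4. A log2 fold change of at least 1 left 2 and 2 members and 8 and 6 wider genes, and a threshold of 0.05 gave 20 wider genes at 24 h. At that threshold 3022 of 9886 tested genes were higher at 24 h and 3120 lower. Thinned controls changed no count by more than 1.5 times. For PC-3 against LNCaP, a threshold of 0.05 gave 4 differences and the likelihood ratio test 3. The causes were not tested.

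With 1 sample left out, called members ranged from 3 to 6 and from 2 to 5 in PC-3 at 12 h and 24 h, and from 0 to 1 between them. In LNCaP they ranged from 0 to 1 at each time and were 0 between them. In CT1258 they ranged from 3 to 5, from 2 to 6 and from 0 to 2. The wider list ranged from 4 to 11 at both times in PC-3, from 0 to 1 in LNCaP, and from 14 to 19 and from 11 to 16 in CT1258. Differences in response ranged from 0 to 4 (PC-3 against LNCaP), 5 to 8 (PC-3 against CT1258) and 4 to 7 (LNCaP against CT1258), and calls between the DMSO controls of the human lines from 3 to 5. In PC-3 at 24 h members fell to 2 without PDA-66 12 h replicate 3 or 24 h replicate 2, wider genes to 4 without 24 h replicate 1 or 2 and to 5 without 12 h replicate 3, and wider genes at 12 h rose to 11 without DMSO replicate 2. In CT1258 members fell to 3 at 12 h without PDA-66 12 h replicate 1, and to 2 at 24 h without DMSO replicate 1 or PDA-66 24 h replicate 3. Between the times 2 members were called there without DMSO replicate 2. PC-3 against LNCaP gave 4 differences without LNCaP DMSO replicate 1, 3 without PDA-66 12 h replicate 2 and 1 without its replicate 1. Sign and call were followed for genes with an unadjusted p under 0.05, and 1 value changed sign, SESN2 in PC-3 at 24 h, which ran from -0.84 without DMSO replicate 2 to 0.028 without DMSO replicate 3.

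Whether equal replicate numbers pair the samples is not known. Correlations of same-numbered samples ran from -0.42 to 0.19 in LNCaP, -0.19 to 0.15 in CT1258 and -0.11 to 0.08 in PC-3. Those of differently numbered samples ran from -0.20 to 0.45, -0.21 to 0.21 and -0.08 to 0.11 in the same order. The correlations use deviations from the means of groups of 2 or 3 samples, which depend on each other, so they cannot decide it. With the replicate block 2 members and 3 wider genes were called in PC-3 at 24 h, and 3 differences between LNCaP and CT1258 in place of 5. The block was not run for PC-3 at 12 h or its differences, where the numbers are unclear.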
